A study of Mus musculus with 111 samples.

Results

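The libraries described here came from the tuberomammillary nucleus (TMN) of mice that carried the H3.3(Q5A) virus, sampled at 6 times of the day. Every library labelled Q5A was taken, which gave 40 of the 111 deposited libraries. Replicates 2 and 3 of cohort 2 at ZT4 differed by 6 reads over 3 rows, less than sampling noise, and were averaged and counted as 1 sample, so that 39 of 110 libraries were analysed. The mice were C57BL/6 by label. By the study's methods they were of both sexes and 8 to 10 weeks old when purchased, before infusion. They were kept under 12 h of light and 12 h of dark with lights on at zeitgeber time (ZT) 0. An adeno-associated virus was infused on both sides into the TMN, and tissue lit by green fluorescent protein (GFP) was dissected 21 days later from 1 animal per library. The virus coded for the histone variant H3.3 with glutamine 5 replaced by alanine and a Flag-HA tag, followed by an IRES-GFP cassette. The mice kept their own H3.3 genes, and which cells took up the virus depended on the infusion, since the promoter of the construct was not given in the sources used here. There were 6, 7, 6, 7, 7 and 6 Q5A libraries at ZT0, 4, 8, 12, 16 and 20. Cohort 1 gave 26 of them, cohort 2 gave 10 and cohort 3 gave 3, the latter at ZT4, ZT12 and ZT16 only. The other libraries carried the same cassette with no histone (GFP, 32 libraries) or with unmutated H3.3 (39 libraries), and are together called controls.

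H3.3 is the histone H3 variant that is laid down outside of DNA replication and accumulates in neurons. The monoamines serotonin, dopamine and histamine can be joined to its glutamine 5 by the transglutaminase TGM2, next to lysine 4, whose methylation marks active promoters and is placed by complexes that contain WDR5. An alanine at this position cannot accept a monoamine. The TMN holds the histamine neurons of the brain, which fire during wakefulness, and mice are awake mainly in the dark. In most cells CLOCK and BMAL1 (Arntl) drive the Per, Cry, Nr1d1 and Dbp genes through E-boxes, and the products of the Per and Cry genes repress them in return, which gives a rhythm of about a day.

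The 39 libraries held 673306 to 3375352 counts on gene rows, and neither total counts, the share in the 10 most abundant rows (8.86 to 19.0%) nor the share of reads on gene rows differed by ZT (permutation tests, two-sided, adjusted p = 0.916 for each). Gene rows took 3.50 to 5.39% of the uniquely placed reads. Rows overlapped by a gene on the opposite strand were 19.9% of the rows found in the annotation but held 79.7% of their reads, and all 37 mitochondrially encoded rows were at 0, although such transcripts are abundant in brain. A value below is therefore the count of a row of the deposited table, and for rows described in detail the gene that lies on the opposite strand is named beside it. Whether a row's reads came from its own gene or from the other strand was not tested. Of the TMN markers, the Hdc row (histidine decarboxylase, which makes histamine) held 0 to 41 reads and was at 0 in 4 libraries, while the Slc18a2 row (the vesicular monoamine transporter) held 30 to 210 reads in every library. The label TMN came from the site of infusion and dissection, and the Hdc row held few reads by which to check it. In bulk tissue, fewer cells of a type and less RNA per cell cannot be told apart.

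A pair of libraries stood apart, both in cohort 1. In replicate 3 at ZT20 the striatal marker rows summed to 2258 normalised counts, against 174 to 303.2 in the other 38 libraries, and the Top2b row, which lies opposite the retinoic acid receptor gene Rarb, reached 2549 against 109 to 282.5. In replicate 3 at ZT16 the rows opposite pituitary markers summed to 1279, against 40.5 to 217.8 elsewhere. The row Parpbp, opposite the melanin-concentrating hormone gene Pmch, which is used by neurons of the lateral hypothalamus, held 22 to 80249 reads. Calls that rest on these libraries are given with and without them, apart from Platr9, which could not be tested without the ZT16 library. The counts by peak time and the shares of the gene lists include both libraries.

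The first question was how many rows followed a rhythm of 24 h in the presence of H3.3(Q5A), and at which time of day they peaked. A cosine curve of 24 h was fitted to 11706 rows (edgeR quasi-likelihood F test, Benjamini-Hochberg adjustment), and 28 rows passed an adjusted p of 0.05, which was 0.239% of those tested. Of the 28, 9 peaked in the 4 h around ZT16 and 14 in the 4 h around ZT20, against 2, 1, 2 and 0 around ZT0, 4, 8 and 12. In all, 25 of 28 (89.3%) peaked in the dark, against 48.9% of all rows tested. Before adjustment 1694 rows (14.5%) had p under 0.05, of which 920 peaked in the dark (7.86% of all rows) and 774 in the light (6.61%). The peaks of these 1694 were most frequent around ZT8 (474 rows) and ZT20 (492) and least around ZT4 (132). Over all rows tested the fitted curves were shallow, and those of the 28 called rows were steeper. Amplitude, the height of the fitted curve above its mean on the log2(normalised count + 1) scale, had a median of 0.70 over the 28 rows, 0.33 over the 1694 and 0.16 over all rows.

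**Figure D1:**
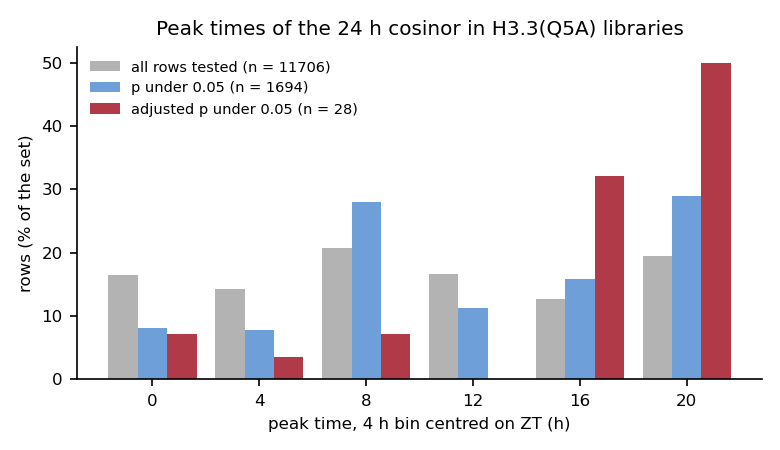
Share of rows (%) by the 4 h bin of their fitted 24 h peak (ZT, h) in the H3.3(Q5A) libraries, for all 11706 rows tested (grey), the 1694 rows with p under 0.05 (blue) and the 28 rows with adjusted p under 0.05 (red). The red bars stand mostly at ZT16 and ZT20, while the blue bars have 1 rise at ZT8 and another at ZT20.

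The time of the peak went with the kind of row. Rows named only after a genomic clone, which mostly stand for unnamed transcripts, peaked in the dark in 325 of 396 cases with p under 0.05 (82.1%, against 63.5% of all clone-named rows tested). Annotated rows with a gene on the opposite strand did so in 362 of 583 cases (62.1%, against 52.7%). Annotated rows with no such overlap showed the reverse, with 230 of 705 peaks in the dark (32.6%, against 39.8%). Among the 28 called rows the dark-peaking counts were 8 of 8, 10 of 10 and 7 of 10 for the same kinds.

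Each of the 39 libraries was left out in turn, and 10 of the 28 rows passed in all 39 fits: Igkc, Sgk1, RP23-188K3.3, RP24-263G24.2, Gm26858 (opposite the zinc finger gene Wiz), Tmco6 (opposite Ndufa2, a subunit of respiratory complex I), Trim17 (opposite Gm44313), Krtcap3, Scarf2 and Gm9817 (opposite Hsp25-ps1). Platr9 (opposite Cga) passed in the 36 fits that tested it and fell under the count filter in the others, among them the fit without replicate 3 of cohort 1 at ZT16, so that its call was not checked without its highest library. Without replicate 3 of cohort 1 at ZT20, 16 of the 28 passed and 12 did not. The other rows lost at least once were Rpl18, Nfam1, Zscan18, Gm44313, Ighg2c, Gpt2, RP24-263G24.3, RP23-234P12.1, RP24-258K6.2, RP23-336D20.8, another clone-named row, and the 6 rows taken up below. The rows named next peaked in the dark and had no gene on the other strand.

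Sgk1, which codes for a kinase induced by glucocorticoids and serum, lies on the plus strand of chromosome 10 (GRCm38, chr10:21882184-21999903). Its row held few reads, 0 to 72 per library. The lowest, median and highest normalised counts were 0, 2.01 and 5.57 at ZT0, 0, 2.32 and 4.29 at ZT4, and 0, 1.23 and 4.12 at ZT8. From lights off they were 3.54, 15.3 and 34.5 at ZT12, 3.35, 6.87 and 12.3 at ZT16, and 2.85, 4.45 and 8.20 at ZT20. The ZT12 libraries overlapped those of the light hours only at their low end. The fitted amplitude was 1.12 ± 0.21 (SE) with a peak at ZT15.0 ± 0.759 h, a fitted peak 4.75-fold above the trough (adjusted p = 0.00735), and ZT as a factor gave an adjusted p of 0.000289. Cohort 1 alone gave a peak at ZT15.3 (adjusted p = 0.00106), and the 13 libraries of cohorts 2 and 3 gave one at ZT13.3 (n = 13, p = 0.00391, adjusted p = 0.9994). In the controls the peak was at ZT15.1 with an amplitude of 0.51 (adjusted p = 0.0182), and the rhythms of Q5A and controls did not differ past the threshold (adjusted p = 0.3645). With the summed oligodendrocyte markers as a covariate, which themselves followed the time of day in cohort 1, the adjusted p in Q5A was 0.074.

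Gpt2, the mitochondrial alanine aminotransferase and a gene of the clock output list, lies on the plus strand at chr8:85492576-85527560. The Gpt2 counts were 17.6, 24.6 and 34.5 (lowest, median, highest) at ZT0, 14.6, 26.9 and 30.8 at ZT4, and 12.5, 19.9 and 28.9 at ZT8. They were 23.9, 40.0 and 59.6 at ZT12, 30.5, 39.1 and 45.8 at ZT16, and 30.9, 35.4 and 39.7 at ZT20. Each median from ZT12 to ZT20 was above the highest count at ZT8, and the ranges of the dark and the light hours overlapped. The amplitude was 0.46 ± 0.086 (SE) and the peak ZT16.5 ± 0.733 h, a peak 1.90-fold above the trough (adjusted p = 0.0254). The controls peaked at ZT15.5 (adjusted p = 0.00146). In cohorts 2 and 3 the fitted peak was ZT15.8 but did not pass (n = 13, p = 0.0999), and the adjusted p in all Q5A libraries was 0.106 with the oligodendrocyte covariate. Without replicate 4 of cohort 1 at ZT4 the adjusted p of Gpt2 was 0.0565, and without replicate 3 it also missed the threshold.

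The E-box CACGTG, the motif bound by CLOCK and BMAL1, was looked for in the 250 bases before the RefSeq start of genes (GRCm38.p6). The motif reads the same on both strands. Of the 28 called rows, 11 had such a window and 2 held the motif, Sgk1 and Zscan18, a zinc finger gene. Over all genes with a window the share was 6.86%. The sites of these 2, and those of the clock gene Per1 and of Dusp1, an immediate early phosphatase, are shown 5′ to 3′ on the strand of the gene with the motif in capitals, so that the letters around it can be compared.
Sgk1 (plus strand, chr10:21993640-21993661): tcctCACGTGttcttggcatgg
Zscan18 (minus strand, chr7:12780765-12780794): gtgacgcgggcgCACGTGgaggcgaagcgg
Per1 (plus strand, chr11:69098771-69098800): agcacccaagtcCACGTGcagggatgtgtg
Dusp1 (minus strand, chr17:26508581-26508610): tcaccgcccggtCACGTGtctgccattcaa
Gpt2 and Dbp did not hold these letters in the window. A match is a description of the letters, and the data hold no binding at them.

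The row with the smallest p was RP23-188K3.3, a clone-named transcript that the annotation used here does not place. Its lowest, median and highest counts were 120.1, 152.6 and 166.5 at ZT0, 73.4, 109.2 and 157.7 at ZT4, and 67.5, 84.6 and 115.2 at ZT8. They were 55.7, 93.8 and 152.7 at ZT12, 119.5, 159.4 and 192 at ZT16, and 121.7, 187.1 and 226 at ZT20. All 6 libraries at ZT0, 7 at ZT16 and 6 at ZT20 lay above the highest library at ZT8. The amplitude was 0.53 ± 0.077 (SE), with a peak at ZT20.4 ± 0.53 h (adjusted p = 0.00188), and the adjusted p was 0.001 with the oligodendrocyte covariate. Cohort 1 peaked at ZT19.8 and cohorts 2 and 3 at ZT21.2 (n = 13, p = 0.003, adjusted p = 0.9994). The controls peaked at ZT21.1 with an amplitude of 0.25 (adjusted p = 0.0225). Fitted apart, the GFP libraries passed (adjusted p = 0.0329) and the H3.3 libraries did not (adjusted p = 0.571).

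Krtcap3 and Scarf2, both annotated without a gene on the other strand, peaked late in the dark and in the light. Krtcap3 codes for a keratinocyte-associated membrane protein (chr5:31251691-31253202). Its median counts were 61.7, 45.7, 37.9, 24.7, 43.6 and 79.3 from ZT0 to ZT20, with all 6 libraries at ZT20 (60.1 to 156.3) above all 7 at ZT12 (13.6 to 47.7). The peak was ZT22.3 ± 0.70 h and the amplitude 0.64 ± 0.12 (SE, adjusted p = 0.0116). Scarf2, a scavenger receptor of the class F (chr16:17797282-17808293), was highest at ZT8, where counts were 18.7 to 32.9 with a median of 26.4, and lowest at ZT16, where they were 6.71 to 13.5 with a median of 8.93. Those groups did not overlap. The peak of Scarf2 was ZT7.17 ± 0.75 h with an amplitude of 0.63 ± 0.13 (SE, adjusted p = 0.0129), and in the controls it was ZT7.22 with an amplitude of 0.71 (adjusted p = 0.000176). For Krtcap3 the controls gave an adjusted p of 0.4275, and the difference in rhythm between Q5A and controls did not pass (adjusted p = 0.240).

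**Figure D2:**
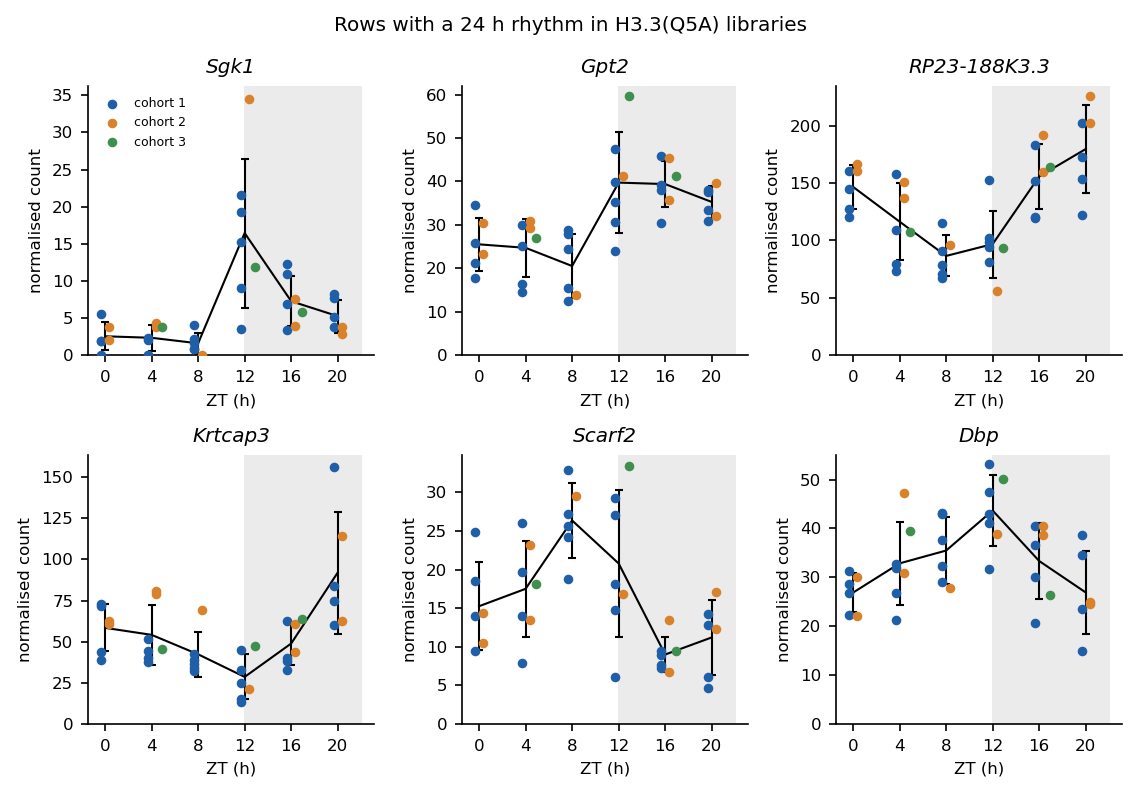
Normalised counts of 6 rows against ZT (h), 1 point per H3.3(Q5A) library coloured by cohort, and the dark hours from ZT12 shaded. Sgk1 sits between 0 and 5.57 in the light hours and reaches 34.5 at ZT12, and RP23-188K3.3 is highest at ZT20.

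The clock was taken in 2 lists, the core loop and the genes that it drives. Of 13 clock output genes tested, 7 had p under 0.05 (53.8%, against 14.5% of all rows), 4 with a peak in the light and 3 in the dark, and 1 passed after adjustment (Gpt2). Their median amplitude was 0.23. A direct test of the rhythms between Q5A and controls called 0 of the 13 after adjustment. Dbp, a transcription factor driven directly by CLOCK and BMAL1, lies on the plus strand (chr7:45705088-45710203) opposite the sphingosine kinase gene Sphk2. The Dbp row ran from 22.1 to 31.3 at ZT0 with a median of 27.7, from 31.8 to 53.1 at ZT12 with a median of 43.1, and from 15.0 to 38.7 at ZT20 with a median of 24.8. The 7 libraries at ZT12 lay above all 6 at ZT0 and overlapped those at ZT20. The peak was at ZT10.6 ± 0.848 h and the amplitude 0.33 ± 0.075 (SE), with an adjusted p of 0.0912. In the controls Dbp peaked at ZT11.5 with an amplitude of 0.30 (adjusted p = 0.00798). It passed in the GFP libraries alone (adjusted p = 0.0229) and not in the H3.3 libraries alone (adjusted p = 0.288). The Sphk2 row, whose opposite strand holds Dbp and the ribosomal gene Rpl18, peaked at ZT10.5 (adjusted p = 0.202). The Thra row (thyroid hormone receptor alpha, opposite the repressor gene Nr1d1) peaked at ZT7.54 (adjusted p = 0.114), and in the controls at ZT9.17 (adjusted p = 0.00329). Wee1, a cell cycle kinase, peaked at ZT17.2 and Tef, a relative of Dbp, at ZT10.5, each with p under 0.05 and neither past adjustment.

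Of the 15 core clock genes tested, 0 had p under 0.05 with the cosine curve and 1 with ZT as a factor (Rora, n = 39, p = 0.0327, a name chosen after its value was seen). Their median amplitude was 0.11, below the 0.16 of all rows. In the controls 8 of the 15 had p under 0.05, against 32% of all rows. The direct test of the rhythms between Q5A and controls called 0 of the 15 after adjustment. Per1, the period gene that light and glucocorticoids induce (chr11:69095217-69109960), had medians of 11.4, 17.2, 11.9, 16.5, 12.97 and 8.78 from ZT0 to ZT20, with an amplitude of 0.21 ± 0.12 (SE, adjusted p = 0.439). In the controls its amplitude was 0.55 with a peak at ZT14.4 (adjusted p = 0.00174). Fitted apart, the GFP libraries passed (adjusted p = 0.0054) and the 39 H3.3 libraries did not (adjusted p = 0.214). The difference between the Per1 rhythms of Q5A and controls did not pass (adjusted p = 0.2345, and p = 0.00139 before adjustment with n = 110). Per2 (adjusted p = 0.966), Clock (0.546), Arntl (0.775) and Nr1d1 (0.950) did not pass in Q5A either. In the same order, the H3.3 libraries alone gave adjusted p values of 0.725, 0.313, 0.465 and 0.172. The GFP libraries alone gave 0.0776, 0.243, 0.936 and 0.0632. The controls had 71 libraries against 39, and a p that misses the threshold does not show that a row was flat. In simulated data of the Q5A design 98% of rows with an amplitude of 1 were recovered, 52% with 0.5 and 8% with 0.25. Those rows were drawn from all count levels, with the same wave in every cohort and no library set apart. Their amplitude was that of the log2 mean count. The shares therefore do not give the recovery of the clock rows.

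Of 12 glucocorticoid-responsive genes tested, 4 had p under 0.05 (33.3%, against 14.5% of all rows). Beside Sgk1 these were the lipid droplet gene Plin4 (opposite Hdgfl2, peak ZT18.1), the metallothionein gene Mt2 (ZT10.6) and Tsc22d3, which codes for the leucine zipper GILZ (ZT13.7), and only Sgk1 passed adjustment. Fkbp5, another classical target, had an amplitude of 0.24 ± 0.17 (SE, adjusted p = 0.512). Of 8 immediate early genes 1 had p under 0.05 (12.5%, below the 14.5% of all rows), Dusp1 (opposite Ergic1), with an amplitude of 0.46 ± 0.11 (SE) and a peak at ZT17.3 (adjusted p = 0.123). Of 15 heat shock and cold-inducible genes 2 did so (13.3%, also below that share), among them the cold-inducible Cirbp at ZT8.05. None of the 19 tested genes of H3.3, monoaminylation and H3K4 methylation had p under 0.05. H3f3a and H3f3b, which code for H3.3, had adjusted p values of 0.956 and 0.563.

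The histamine list had 3 of 10 members with p under 0.05 (30%, against 14.5% of all rows) and 0 after adjustment. These were galanin (Gal), the amino acid transporter gene Slc7a5, with a peak at ZT9.47, and Slc18a2, with a peak at ZT19.1. Hdc (chr2:126593667-126619299, minus strand) had a lowest, median and highest count of 1.51, 6.13 and 29.7 at ZT0, 1.88, 7.73 and 28.6 at ZT4, and 1.03, 6.14 and 12.5 at ZT8. They were 0, 1.18 and 14.4 at ZT12, 0, 5.58 and 13.5 at ZT16, and 0, 1.65 and 12.3 at ZT20. The ranges overlapped at every time. The fitted amplitude was 0.70 ± 0.29 (SE) at ZT3.27 ± 1.67 h (adjusted p = 0.349). In cohort 1 alone Hdc passed with a peak at ZT3.18 (adjusted p = 0.00267), whereas cohorts 2 and 3 had p = 0.558 (n = 13). In the controls Hdc peaked at ZT12.2 with an amplitude of 0.86 (adjusted p = 0.00404). The difference between Q5A and controls passed with an adjusted p of 0.0325, and did not without the pair of libraries that stood apart (0.066) or against the H3.3 virus alone (0.091).

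Neuropeptide rows had their peaks in the light where they passed before adjustment. Of 18 tested, 5 had p under 0.05 (27.8%, against 14.5% of all rows) and all 5 peaked between ZT5.91 and ZT8.35, with 0 past adjustment. They were Cartpt, Trh, Gal, Adcyap1 and Nucb2, which code for precursors of hypothalamic peptides that act on feeding, arousal and the thyroid axis. Trh had an amplitude of 1.19 ± 0.35 (SE) with a peak at ZT6.20 (adjusted p = 0.234). Gal had medians of 5.31, 9.28, 12.1, 7.95, 3.05 and 1.97 from ZT0 to ZT20 and a peak at ZT7.45 (adjusted p = 0.211). In cohort 1 the summed neuropeptide rows had a median of 436.2 at ZT0 to 8 (285.1 to 748) and 269.7 at ZT12 to 20 (115.3 to 531.6). In cohorts 2 and 3 the medians were 305.4 (73.82 to 879.7) and 452.3 (152.2 to 898.7). The ranges of light and dark hours overlapped in both cohort sets. Of the 18 rows, 0 differed in rhythm between the cohort sets after adjustment. The rows opposite neuropeptide genes, Parpbp among them, had a median sum in cohort 1 of 30000 at ZT0 to 8 and 6156 at ZT12 to 20, and in cohorts 2 and 3 of 18080 and 27150. Their part in the neuropeptide rhythm was not tested.

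Transmitter genes had 3 of 12 with p under 0.05 (25%, against 14.5% of all rows), among them glutamine synthetase (Glul, opposite Teddm2) at ZT16.1. Synaptic vesicle genes had 3 of 21, glutamate and GABA receptor genes 3 of 24, all 3 with a peak in the light (Gria4 at ZT10.4 and Gria1 at ZT8.49 had the smallest p), and neurotrophin signalling genes 2 of 22 (Ntrk3 at ZT8.69 and Sos1 at ZT9.27). Cytosolic ribosomal protein genes had 6 of 48 and nuclear respiratory chain genes 5 of 70. None of these shares of receptor, vesicle, neurotrophin, ribosomal or respiratory genes was above the 14.5% of all rows. Rpl18 was the 1 ribosomal row called after adjustment, and Sphk2 lies opposite it.

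Of the 28 called rows 3 peaked in the light, Scarf2, Zscan18 and Nfam1, an immune signalling adaptor. The Nfam1 row had a mean of 5.48 normalised counts and an adjusted p of 0.0451, and passed in 17 of the 36 fits that tested it. Without replicate 3 of cohort 1 at ZT20 the adjusted p was 0.07718 for Nfam1 and 0.07717 for Zscan18. Zscan18 had medians between 31.0 and 36.9 from ZT0 to ZT12, of 19.1 at ZT16 and of 21.5 at ZT20, and a peak at ZT5.82, and it passed in 22 of the 39 fits that left out a library, with a highest adjusted p of 0.1094 without replicate 4 of cohort 1 at ZT8. Other rows named for their peak in the light did not pass adjustment. Slit1, an axon guidance ligand, had medians of 24.5, 50.2, 43.1, 39.8, 29.8 and 27.3 from ZT0 to ZT20 (peak ZT8.03, adjusted p = 0.052). Tlr9, the receptor of unmethylated DNA, peaked at ZT6.60 in Q5A (adjusted p = 0.052) and at ZT6.75 in the controls (adjusted p = 0.0012). Usp1, a ubiquitin protease of DNA repair, peaked at ZT7.03 (adjusted p = 0.052), and the zinc finger genes Zfp319 and Zfp622 at ZT5.96 and ZT5.71 (adjusted p = 0.143 and 0.156). At the turn from light to dark, Arhgef26 (opposite 9330121J05Rik), an exchange factor for small GTPases, had its highest median at ZT12 (58.8, against 36.2 at ZT4) and a peak at ZT12.6 (adjusted p = 0.052), with the controls at ZT12.4 (adjusted p = 0.043).

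A question the design raises is whether a call rests on a single animal. Krt12, a keratin of the cornea whose opposite strand holds A830036E02Rik, was called with a peak in the dark, but 1 library at ZT20 held 999.2 normalised counts and the other 5 held 9.02 to 64.6. Ppp1r1b, which codes for DARPP-32 of striatal neurons, held 621.3 counts in the same library and 2.14 to 16.4 in the other 5. Without that library (cohort 1, replicate 3) the adjusted p values were 0.3994 for Krt12 and 0.6034 for Ppp1r1b. The same held for Scn4b, a sodium channel subunit (0.227), Ankk1, a neighbour of the dopamine receptor gene Drd2 (0.2311), Epyc, a proteoglycan (0.6364), and RP23-355L10.3 (0.3907). Each of these 6 rows had its highest count of all 39 libraries in the library in which the striatal marker sum was 2258, as did RP23-336D20.8, Gm44313 and RP24-258K6.2 (adjusted p = 0.1661, 0.06393 and 0.07718 without it). The part of striatal tissue in these calls was not tested. Platr9, opposite the pituitary hormone gene Cga, held 1101 counts in replicate 3 of cohort 1 at ZT16 and 0 to 100.6 in the other 6 libraries of that time, and had no test without that library. Pomc, the precursor of melanocortins in the arcuate nucleus and pituitary, held 373 in that library against 1.45 to 23.8. Igkc, the constant part of the immunoglobulin kappa chain, ran from 1.83 to 179.7 at ZT16 with a median of 16.8, and from 0 to 3.15 at ZT0. Its fitted amplitude was 1.495 ± 0.39 (SE) with an adjusted p of 0.0052, and antibody transcripts are made by plasma cells, which are few in brain.

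**Figure D3:**
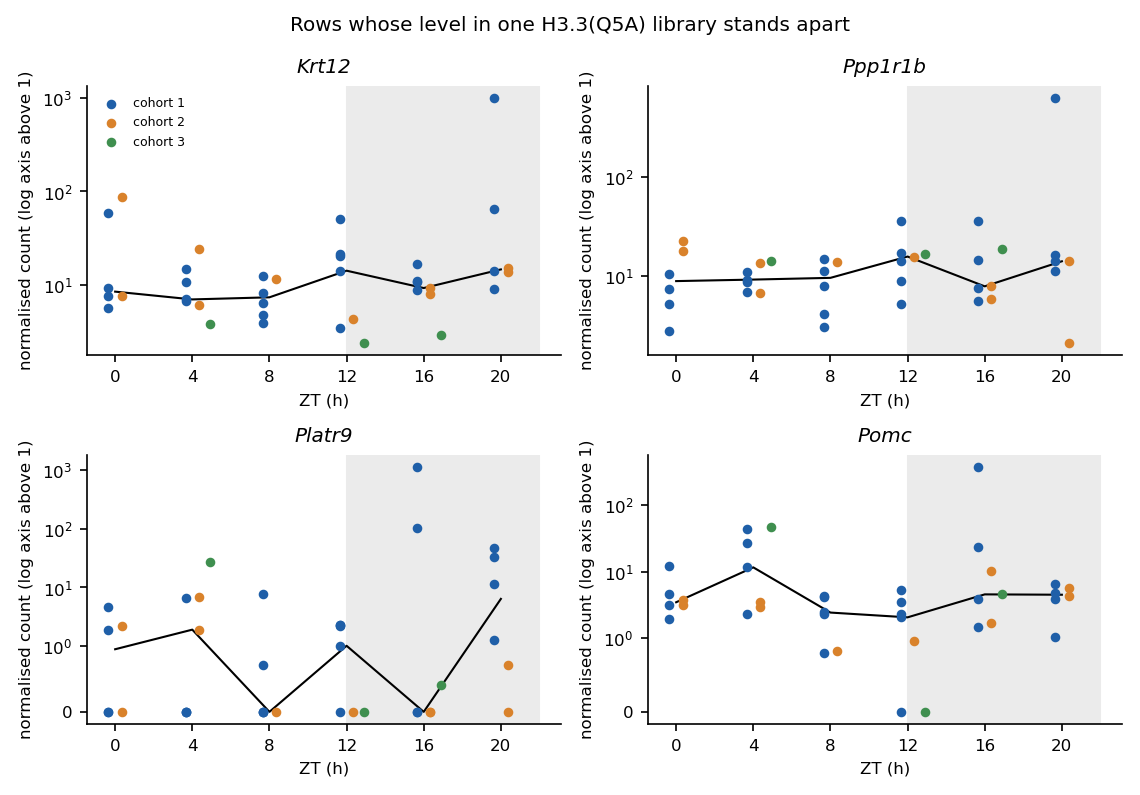
Normalised counts of Krt12, Ppp1r1b, Platr9 and Pomc against ZT (h) in the H3.3(Q5A) libraries. Each library is 1 point on an axis that is logarithmic above 1, with the dark hours shaded. Single cohort 1 libraries hold 999.2 counts of Krt12 and 621.3 of Ppp1r1b at ZT20, and 1101 of Platr9 and 373 of Pomc at ZT16.

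With ZT as a factor, which needs no cosine shape, 22 rows passed (0.188%). Without replicate 3 of cohort 1 at ZT20, 8 of these 22 passed and the whole fit called 9 rows, and 5 of the 22 passed whichever library was left out (Cox6a2, Krtcap3, Pomc, RP23-188K3.3 and Sgk1). A rhythm of 12 h beside that of 24 h passed in 1 row of 11706 (0.00854%), Pomc (adjusted p = 0.00557), and in 0 rows without replicate 3 of cohort 1 at ZT16. In that fit of the 12 h rhythm 601 rows had p under 0.05 before adjustment with all libraries, and DESeq2 called 2 rows.

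The fitted rhythms of some rows differed between the cohort sets. Cohort 2 gave 2, 2, 1, 1, 2 and 2 libraries from ZT0 to ZT20. Cohort 3 gave 1 at ZT4, 1 at ZT12 and 1 at ZT16, and the test took both cohorts as 1 group. At these numbers a difference between cohorts and a difference between single animals cannot be told apart. A test of the cosine terms between cohort 1 and cohorts 2 and 3 called 112 rows (0.957% of 11706), all 112 with fitted peaks more than 4 h apart. In cohort 1, 98 of the 112 peaked between ZT14 and ZT18, and in cohorts 2 and 3, 93 of them between ZT20 and ZT4. The median amplitude over these rows was 0.77 in cohort 1 and 0.52 in the others. Without the pair of libraries that stood apart 244 rows passed. Cohort 1 alone, with 26 libraries, gave 941 called rows of the 11298 also tested in all libraries (8.33%), while cohorts 2 and 3, with 13 libraries, gave 0 of 14766 after edgeR's adjustment and 580 with p under 0.05. Of the rows tested in both cohort sets 3.81% had p under 0.05 in cohorts 2 and 3, and of the 940 called in cohort 1, 139 did (14.8%). Only 22.6% of those 940 had a fitted peak within 4 h of that in cohort 1, against 39.5% of all rows.

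Oligodendrocyte rows gave 6 of the 112. Of the 14 markers tested, 9 had p under 0.05 over all Q5A libraries (64.3%, against 14.5% of all rows), all 9 peaked in the dark and 0 passed adjustment. In cohort 1, 11 of 14 passed adjustment, in cohorts 2 and 3 none of the 14 had p under 0.05, and 6 of 14 differed between the cohort sets: Mbp, Mag, Mobp and Mal, which code for myelin proteins, Cldn11, the tight junction protein of myelin, and Sox10, a transcription factor of the lineage. Cldn11 peaked at ZT15.9 over all libraries (adjusted p = 0.117), with an adjusted p of 9.5e-05 in cohort 1 and p = 0.559 in cohorts 2 and 3 (n = 13), and the difference had an adjusted p of 0.0138. The row Galnt5, opposite the myelin gene Ermn, peaked at ZT16.7 in cohort 1 and ZT23.8 in cohorts 2 and 3 (adjusted p of the difference 0.0065). The 14 rows summed to 1597 to 2636 in cohort 1 at ZT0 to 8 with a median of 1920, and to 2126 to 7660 at ZT12 to 20 with a median of 4090. In cohorts 2 and 3 they summed to 2382 to 5398 at ZT0 to 8 with a median of 3360. At ZT12 to 20 those cohorts had 1928 to 4436 with a median of 2542. The order of the medians was thus the reverse, but these ranges overlapped over most of their length. In the controls 10 of 14 had p under 0.05, against 32% of all rows, with Cldn11 at ZT21.3 and Mbp at ZT21.4. With the summed markers as a covariate, cohort 1 gave 131 called rows in place of 947, and 83 were shared. The sum itself followed the time of day in cohort 1, so the covariate takes out 24 h variation of like timing from any source. The part of oligodendrocyte RNA in the other rhythms of cohort 1 was not tested.

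**Figure D4:**
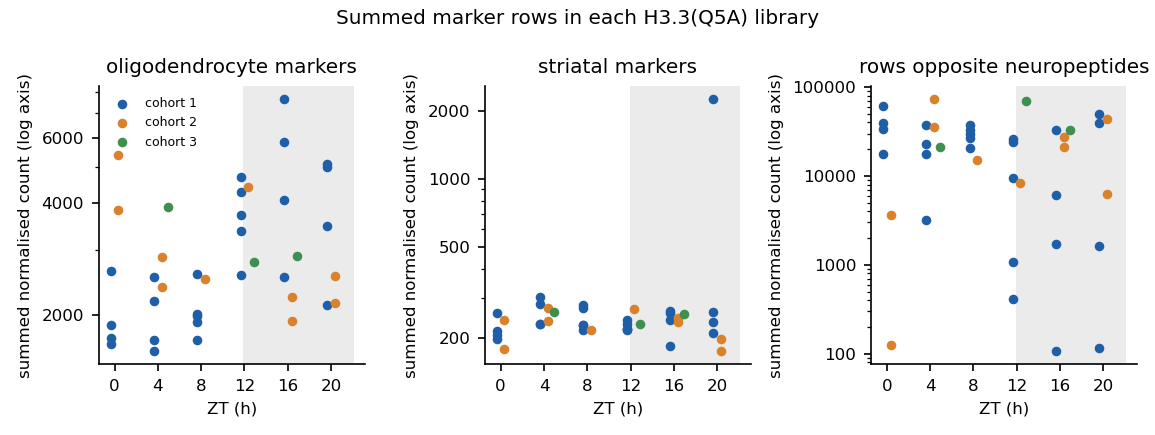
Summed normalised counts (log axis) of oligodendrocyte markers, striatal markers and rows opposite neuropeptide genes against ZT (h), 1 point per H3.3(Q5A) library coloured by cohort. In cohort 1 the oligodendrocyte sum has a median of 1920 at ZT0 to 8 and 4090 at ZT12 to 20, and 1 library at ZT20 has a striatal sum of 2258.

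Of the other cell type lists, astrocyte markers had 3 of 13 rows with p under 0.05 (23.1%, against 14.5% of all rows), among them the glutamate transporter Slc1a3 at ZT8.05 and Gfap at ZT13.2. Ependymal and choroid plexus markers had 2 of 5, or 40% (Dnah11, opposite Cdca7l, at ZT2.51 and Enpp2, opposite Gm26684, at ZT13.8). Striatal markers had 2 of 10 (20%, against the same 14.5%), Ppp1r1b and the phosphodiesterase Pde10a. Microglial, endothelial and pituitary markers had 0 of 8, 0 of 3 and 0 of 4.

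The libraries of the other viruses offered values that the choice of rows had not used. Fitted apart, the 24 h cosine called 696 of 12200 rows in GFP and 89 of 11366 in H3.3, and the values below pool them. Of the 28 rows called in Q5A, 27 were tested in the 71 control libraries, where 20 (74.1%) had p under 0.05, against 32% of all rows, and 15 (55.6%) also had a peak within 4 h of that in Q5A, against 11.5%. Of the 1694 rows with p under 0.05 in Q5A, 310 of 1691 (18.3%) did so. A direct test of the rhythms between Q5A and controls over 13254 rows called 14 (0.106%), and 1981 had p under 0.05 before adjustment. Among these 14 were Hdc, and Igkc, Ighg2c, Ankk1, Epyc, Ppp1r1b and RP23-355L10.3 of the 28. Without the pair of libraries that stood apart 3 rows passed, and those 7 did not. In cohort 1 alone, in contrast, the same test called 777 rows.

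**Figure D5:**
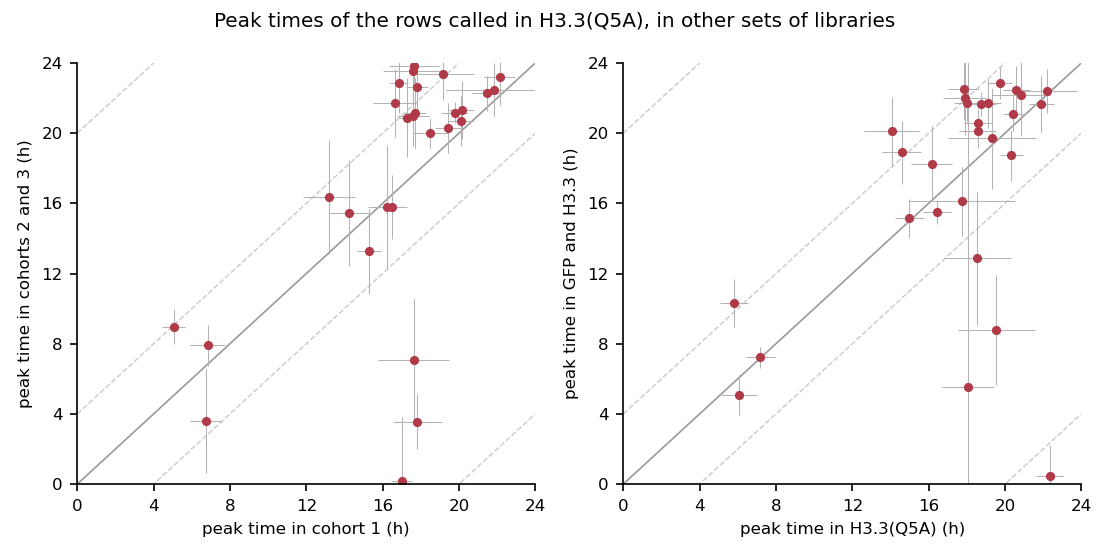
Fitted peak times (h, with standard errors) of the 28 rows called in H3.3(Q5A), in cohort 1 against cohorts 2 and 3 (left) and in Q5A against the GFP and H3.3 libraries (right). The solid line is equal time and the dashed lines lie 4 h away from it, and 15 of the 27 rows tested in both lie within them and have p under 0.05 in the controls.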

How the data were processed

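RNA was measured by stranded mRNA sequencing of microdissected TMN, and the libraries of this account are the 39 that carried the H3.3(Q5A) virus. Per the study's methods and the submitters' processing notes, reads were aligned with STAR 2.7.11b to GRCm38 and counted with HTSeq 2.0.5 over Ensembl genes, and the authors deposited the raw counts per gene, 1 table per library. The last 5 rows of each table name no gene, held 94.6 to 96.5% of the uniquely placed reads and were left out. The 18 tables of the whole series that name no sample were not used. The members, gene lists and tests were chosen with earlier results of these data known.

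Rows were kept by edgeR's filterByExpr (minimum count 10, total 15), scaled by TMM and tested with edgeR 4.0.16 in R 4.3.3 (quasi-likelihood F test, Benjamini-Hochberg adjustment over all rows tested, threshold 0.05). The tests were the cosine and sine of 24 h together, ZT as a factor, a 12 h harmonic, and the product of the 24 h terms with cohort or virus. No p was adjusted over a list alone. Amplitude and peak time with standard errors came from least squares on log2(normalised count + 1), with size factors by the median of ratios over all 110 libraries, which understates the change of low rows. Alternatives used DESeq2 1.42.0, limma 3.58.1 and JTK_CYCLE. The scripts were tested on simulated data. Gene positions were read from GENCODE vM21 (GRCm38), which named 28499 of the 54087 rows. Depth was 673306 to 3375352 gene counts per library, and counting error is largest in rows of few counts, such as Hdc and Sgk1. Rows named in the text were those called, the 3 of smallest p in each 4 h bin of peak time (mean of at least 20), the 3 of smallest p of the other tests, up to 2 members of each of 19 lists, and fixed clock and histone genes. Other names were chosen after their values were seen. Some rows that met these rules are not reported here.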

Additional observations from a re-analysis of the deposited data

Results flagged for a closer look

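Single libraries lay far from the others of their ZT by the Dixon ratio, which chance gives in about 1 of 20 groups, in 26 of 174 groups of values examined. Replicate 3 of cohort 1 at ZT20 was highest for Krt12 (999.2 normalised counts), Ppp1r1b (621.3) and the summed striatal markers (2258). Replicate 3 of cohort 1 at ZT16 was highest for Platr9 (1101), Pomc (373) and the summed rows opposite pituitary markers (1279), and lowest for the striatal sum (183.1). Replicate 4 of cohort 1 at ZT12 was highest for Igkc (48.2), Krt12 (50.2) and Ppp1r1b (35.9).

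Cohort 2 libraries were apart for Thra (789.8) and Krtcap3 (69.6) in replicate 1 at ZT8, for Scarf2 (13.5), Arhgef26 (77.7) and Gal (15.9) in replicate 2 at ZT16, for Hdc in replicate 1 at ZT12 (14.4) and replicate 2 at ZT20 (12.3), and for Igkc in replicate 1 at ZT0 (3.15). Cohort 3 libraries were apart for Igkc (4.38) and Platr9 (26.9) at ZT4 and for the summed rows opposite neuropeptides at ZT12 (69870). Cohort 1 replicate 4 was apart for Pomc at ZT0 (12.01) and Platr9 at ZT8 (7.80). In depth, the cohort 3 library at ZT16 had the highest total (3375352 counts) and the highest share in the 10 most abundant rows (18.3%) of its time, and replicate 1 of cohort 2 at ZT12 had the highest share of reads on gene rows (5.39%).

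The 24 h rhythm differed between Q5A and controls, by edgeR's test of the difference, for RP23-355L10.3 (adjusted p = 0.00148), Epyc (0.00859), RP23-76M24.3 (0.0236), Igkc (0.0290), Ppp1r1b (0.0295), Ankk1 (0.0305), Hdc (0.0325) and Ighg2c (0.0411). Without replicate 3 of cohort 1 at ZT16 and at ZT20 none of these 8 passed, with adjusted p values of 0.0652 to 0.4795. Hdc and RP23-76M24.3 were not among the 28 rows called in Q5A.

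The rhythm differed between cohort 1 and cohorts 2 and 3 within Q5A for Platr9 (adjusted p = 0.00319), RP24-258K6.2 (0.0065), Galnt5 (0.0065), Cldn11 (0.0138), Scn4b (0.0172) and Cplx1 (0.0259) among the rows named. Platr9 peaked at ZT17.8 in cohort 1 and at ZT3.57 in cohorts 2 and 3, and it fell under the count filter, with no test, without replicate 3 of cohort 1 at ZT16, which held 1101 counts.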

How the results depend on the processing

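The number of rows called depended on the processing, and no amplitude or peak of the 84 named rows moved by more than 1 SE or 1 h with another pseudocount or with TMM scaling. Against 28 rows of the 24 h cosine, 116 passed with DESeq2 (19 of the 28), 16 with limma-voom (14), 186 of 32403 with no filter (27), 54 of 6395 with a mean of at least 20 (19), 947 in cohort 1 alone (27), 15 in a robust fit (15) and 44 with the repeated library kept (28). JTK_CYCLE, which searched periods of 8 to 24 h, gave 7 at q under 0.05. By the adjusted p of a row alone it gave 826, of which 430 had a best period of 24 h. At an adjusted p of 0.1 97 passed, and at an unadjusted p of 0.05 1694. Scaling by size factors gave 34 and a cohort term 32, and the oligodendrocyte and striatal covariates, chosen after seeing the data, 34 (20 of the 28) and 25 (18). Without both libraries that stood apart, 15 of the 28 passed, 12 did not and Platr9 was not tested.

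Against 22 rows of ZT as a factor, 68 passed with DESeq2, 3 with limma-voom, 652 with no filter, 609 in cohort 1, 10 in a robust fit, 33 with the repeated library kept, 44 at an adjusted p of 0.1, 1103 at an unadjusted p of 0.05, 10 with the striatal covariate and 6 without both libraries that stood apart. For the 12 h rhythm (1 row) DESeq2 gave 2, no filter 75, and limma-voom, a mean of at least 20, cohort 1, a robust fit and leaving out both libraries 0. The cohort difference (112) gave 201 with DESeq2, 433 with cohort 2 alone and 244 without both libraries. The difference from controls (14) gave 777 in cohort 1, 32 against H3.3 alone and 3 without both libraries.

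Leaving out 1 library gave 19 to 81 rows for the cosine, 9 to 50 for ZT and 0 to 1 for 12 h. The cosine count rose past 1.5 times the reported one without ZT0 cohort 1 replicate 3 (44) or cohort 2 replicate 2 (81), ZT4 cohort 2 replicate 1 (47) or cohort 3 (44), ZT8 cohort 2 replicate 1 (57), ZT12 cohort 1 replicate 2 (43), ZT16 cohort 2 replicates 1 (51) or 2 (53) or cohort 3 (49), or ZT20 cohort 2 replicate 1 (45). The ZT count did so without ZT0 cohort 1 replicates 2 (42) or 4 (39) or cohort 2 replicate 2 (38), ZT12 cohort 2 replicate 1 (39), or ZT20 cohort 1 replicates 2 (38) or 4 (40) or cohort 2 replicates 1 (50) or 2 (44), and fell to 9 without ZT20 cohort 1 replicate 3. The causes were not tested.

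A replicate block (cohort and replicate number) gave 10 rows for the cosine (9 of the 28), 1 for ZT and 0 for 12 h. Whether the numbers pair the libraries was not settled. Same-numbered libraries of cohort 1 correlated by a mean of 0.0159 in their deviations over 61 pairs, with 10 over 0.1. Different numbers gave a mean of -0.00386 over 220 pairs, with 38 over 0.1. In cohort 2 the mean was 0.0511 over 12 pairs, with 6 over 0.1. Different numbers there gave -0.0511 over 12 pairs, with 0 over 0.1. The opposite signs were fixed in advance, because a pair of libraries lies equally far on both sides of its mean. In all, 15 of 34 libraries correlated best with their own number, and the share by chance was not worked out. Calls by count level were not tested.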
